A study of Mus musculus with 29 samples.

Results

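Mrc1, Cd163, Lyve1, F13a1, Pf4, Cbr2 and Ms4a7 are 7 genes used to recognise border-associated macrophages, the macrophages at the edges of the brain. They were chosen by name, as known identity genes of these cells. All 7 were listed among the 27641 genes of the brain tables. Their level was followed by cell type and by subtype of border macrophage in 18 Drop-seq libraries of mouse brain, a droplet method that counts transcript molecules cell by cell. The mice were C57BL/6J, with no transgene named in the labels. For stroke, the middle cerebral artery was closed for a time and reopened, and the other mice were sham operated. Young males of 8 to 10 weeks gave 4 sham libraries at day 2, 4 stroke libraries at day 2 and 4 stroke libraries at day 14. Mice of 17 to 20 months gave 2 sham libraries at day 2 (male 1, female 1), 3 stroke libraries at day 2 (male 1, female 1, female 2) and 1 stroke library at day 14 (female 1). Each library pooled 4 to 5 hemispheres, from which leukocytes with high CD45, microglia and endothelial cells were sorted. Sham libraries come from day 2 alone, so day 14 differs from sham in both surgery and time.

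Border-associated macrophages line the meninges, the spaces around vessels and the choroid plexus, where they take up debris and sample the fluid. Most descend from embryonic precursors, and monocytes replace some of them in the adult. A class rich in Lyve1 and a class rich in MHC class II molecules are usually told apart. Mrc1 encodes the macrophage mannose receptor, Cd163 the scavenger receptor for haemoglobin bound to haptoglobin, and Lyve1 a receptor for hyaluronan. F13a1 encodes the catalytic A subunit of coagulation factor XIII, Pf4 the chemokine platelet factor 4, Cbr2 a carbonyl reductase and Ms4a7 a membrane protein of the MS4A family.

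On GRCm38, Mrc1 lies on chromosome 2 (14229392 to 14332057, plus strand), Cd163 on chromosome 6 (124304656 to 124330527, plus) and Lyve1 on chromosome 7 (110850607 to 110863239, minus). F13a1 lies on chromosome 13 (36867178 to 37050244, minus), Pf4 on chromosome 5 (90772435 to 90773383, plus), Cbr2 on chromosome 11 (120729489 to 120732114, minus) and Ms4a7 on chromosome 19 (11321039 to 11336146, minus). All are protein-coding genes. F13a1 is overlapped by the antisense genes Gm49144 and Gm30489, and Mrc1 holds the microRNA gene Mir511 on its own strand, so reads of these pairs may not be separable. The 150 bases before the RefSeq start sites (the first listed where a gene has more) of Mrc1, F13a1, Pf4 and Ms4a7 are printed because these 4 genes were called in a comparison of cells other than border macrophages. Capitals mark the letters GAGGAA, or TTCCTC on the other strand, the core bound by the myeloid factor PU.1. The sequences are RefSeq's, on GRCm38.p6, from 5′ to 3′ in the direction of the gene, at chr2:14229264-14229413 (plus), chr13:37050245-37050394 (minus), chr5:90772285-90772434 (plus) and chr19:11336147-11336296 (minus).
Mrc1: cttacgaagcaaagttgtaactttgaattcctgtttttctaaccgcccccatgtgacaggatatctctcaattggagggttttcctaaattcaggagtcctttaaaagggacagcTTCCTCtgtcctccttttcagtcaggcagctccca
F13a1: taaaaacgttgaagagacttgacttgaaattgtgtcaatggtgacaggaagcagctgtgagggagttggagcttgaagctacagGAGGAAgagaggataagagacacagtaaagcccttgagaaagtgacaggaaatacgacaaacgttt
Pf4: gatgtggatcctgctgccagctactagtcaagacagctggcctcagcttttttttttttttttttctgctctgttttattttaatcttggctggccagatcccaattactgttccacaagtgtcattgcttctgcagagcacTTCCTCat
Ms4a7: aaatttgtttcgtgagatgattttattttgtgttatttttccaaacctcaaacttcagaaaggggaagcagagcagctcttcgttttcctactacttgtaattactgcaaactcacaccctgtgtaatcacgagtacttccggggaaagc
In the 250 bases before the start, the PU.1 core stood in 4 of 8 promoters of the 6 identity genes with an entry, against 23.3% of all 32851 promoters of that length. It lay 180, 167 and 35 bases before the start of Mrc1, 66 before F13a1, 8 before Pf4 and 79 before Cbr2. The letters TGCTGA, or TCAGCA on the other strand, a MAF binding core that shares no stretch with the PU.1 core, stood in 0 of 8, against 16.1% of all promoters. A match of letters is a description and not a site.

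Brain libraries held 1143 to 5121 cells and 819438 to 5855047 counts, their median cells held 320.8 to 1363.2 counts, and no pair of libraries shared more than 3 cell barcodes. The deposited annotation put 587 young sham, 357 young day 2 and 214 young day 14 cells among border macrophages. In young sham libraries, 20 other border macrophage genes summed to 3004 to 11820 counts per 1000000 (CPM) in these cells, 1820 to 2388 in microglia and 356.5 to 721.6 in monocyte-derived cells. The microglial marker list summed to 154.4 to 2255 CPM in border macrophages, against 19240 to 27780 in microglia, and the fibroblast list was at 0. Sham replicate 4 stood apart: 43 of its 52 border macrophages (82.7%) were of subtype BAM2, its median cell held 275 counts, and its monocyte list summed to 3957 CPM against 532.6 to 1060 in the other 3 sham libraries. Microglia of day 2 replicate 3 also stood apart, with 58 cells and 820.3 CPM of summed microglial markers.

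Among types with at least 50 cells in a group, border macrophages held the highest level of all 7 genes in 5 of the 6 groups, and of 5 of the 7 in the aged day 14 library. In pooled young sham cells, Mrc1 reached 5044 CPM in border macrophages, and dendritic cells were next with 317.8 CPM. Cd163 stood at 674.6 CPM (dendritic cells 14.07), Lyve1 at 1110 (T cells 10.36), Pf4 at 3143 (B cells 82.39) and Cbr2 at 1009 (monocyte-derived cells 6.53). These second types rest on 3 pooled counts for Cd163, 1 for Lyve1, 7 for Pf4 and 1 for Cbr2, so which type came second is not read. F13a1 was least separate, at 1573 CPM in border macrophages and 1144 in monocyte-derived cells, and the libraries of both types overlapped (629.9 to 1713 against 970.8 to 1380 CPM). Ms4a7 stood at 1237 CPM against 123.0 in monocyte-derived cells in sham. At day 14 the same gene stood at 1458 CPM against 982.1, and the libraries of both types overlapped (1051 to 2057 against 762.9 to 1196 CPM). In the aged day 14 library, monocyte-derived cells exceeded border macrophages for F13a1 (309.5 against 142.5 CPM) and Ms4a7 (627.5 against 362.9 CPM). The annotation came from expression that included these genes, so the order of types is described and not tested.

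Cell by cell the counts were sparse. At least 0.5 counts of Mrc1 were seen in 75.6% of young sham border macrophages, against 1.35% of T cells, which should lack it, with median depths of 520 and 371 counts. The share was 57.4% against 0.45% for Pf4, 46.3% against 0.45% for F13a1 and 43.6% against 0% for Ms4a7. Cbr2, Lyve1 and Cd163 were seen in 32.5%, 24.5% and 24.2% of border macrophages, and in at most 0.45% of T cells. Of the 587 sham border macrophages, 26 (4.43%) held a count of all 7 genes and 69 (11.8%) of none.

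Within young border macrophages, the receptor and enzyme genes were concentrated outside subtype BAM2. Pooled over the young libraries, Mrc1 stood at 5469 CPM in BAM1 (442 cells), 1064 in BAM2 (388 cells), 4303 in BAM3 (168 cells), 2901 in BAM4 (111 cells) and 2816 in BAM5 (49 cells). These pools mix groups, and 96 of the 111 BAM4 cells came from day 2, so levels of BAM1, BAM3 and BAM4 are not ranked. Lyve1 was at 14.35 CPM in BAM2 and 1431 in BAM1. In young sham it stood at 1738 CPM in BAM1, 968.3 in BAM3 (96 cells) and 2623 in BAM4 (10 cells), at day 2 at 1450 in BAM1 and 3136 in BAM3, and at day 14 at 424.3 in BAM1 and 0 in BAM3 (17 cells). Cd163 was at 840.6 CPM in BAM1 and 36.65 in BAM2, and Cbr2 at 2077 in BAM4 and 119.2 in BAM2. Pf4 was at 889.4 CPM in pooled BAM2. In young sham alone it stood at 580.1 CPM in BAM2, and at 4444, 4268 and 4209 in BAM1, BAM3 and BAM4. Ms4a7 was the most even of the 7, between 893.0 CPM in BAM2 and 1724 in BAM4. The MHC class II genes, which present antigen to helper T cells, had the opposite order: H2-Aa was at 11540 CPM in BAM2 and at 246.6 to 430.3 in the other 4 subtypes, and Cd74, their invariant chain, at 29980 against 639.1 to 1508. In aged BAM2 cells, Lyve1 was at 0 CPM in sham and at day 2. The aged day 14 library differed, with Lyve1 at 240.7 CPM in BAM2 (15 cells), 86.89 in BAM3, 82.25 in BAM4 and 578.4 in BAM1. Cd163 stood there at 577.7 CPM in BAM2 and 977.3 in BAM1. Subtypes came from clustering on these genes among others, so these contrasts are a description.

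**Figure D1:**
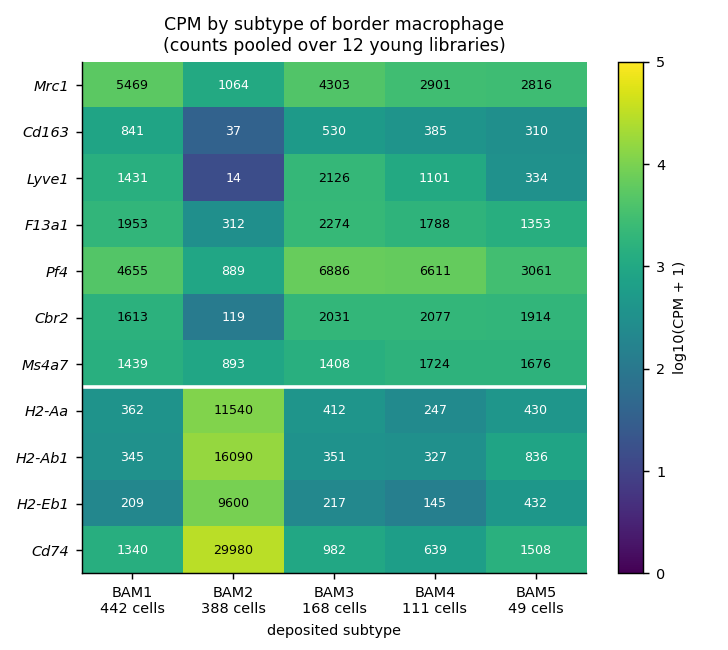
CPM of the 7 identity genes (upper rows) and 4 MHC class II genes (lower rows) in each deposited subtype of border macrophage, counts pooled over 12 young libraries. Colour gives log10(CPM + 1) and each cell prints the CPM. BAM2 is lowest for all 7 identity genes and highest for the 4 MHC class II genes.

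The mix of subtypes varied between groups. BAM2 made up 34.4% of young sham border macrophages, 21.8% at day 2 and 50.5% at day 14. BAM4 made up 1.7%, 26.9% and 2.34%, and BAM1 45.5%, 28.6% and 34.1%. Replicate 4 held 78 of the 102 day 2 BAM1 cells, and without it the BAM1 share was 13.7% and the BAM4 share 36.6%. The day 14 BAM4 share rests on 5 cells, 4 of them in replicate 3. Libraries within a group differed as well: BAM4 held 17.6% to 45.3% of the border macrophages of the 4 day 2 libraries and 0% to 3.74% of those of the sham libraries. Because the identity genes define these subtypes, the shares are not tested. Border macrophages made up 24.3% ± 9.99 of leukocytes other than microglia in sham (SD, n = 4), 3.95% ± 3.56 at day 2 (2.22% without day 2 replicate 4) and 3.3% ± 1.71 at day 14. Every stroke library lay below every sham library, with an exact two-sided permutation p of 0.0286 for each time, the smallest that 4 against 4 allows, and 0.0857 after adjustment over 6 tests. Among all sorted cells the shares were 3.81% ± 2.01, 2.28% ± 1.41 and 1.64% ± 0.796, with exact p of 0.257 and 0.114 against sham (adjusted 0.386 and 0.229). Monocyte-derived cells numbered 318 in young sham and 7225 at day 2, so the lower share among leukocytes does not show fewer border macrophages.

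**Figure D2:**
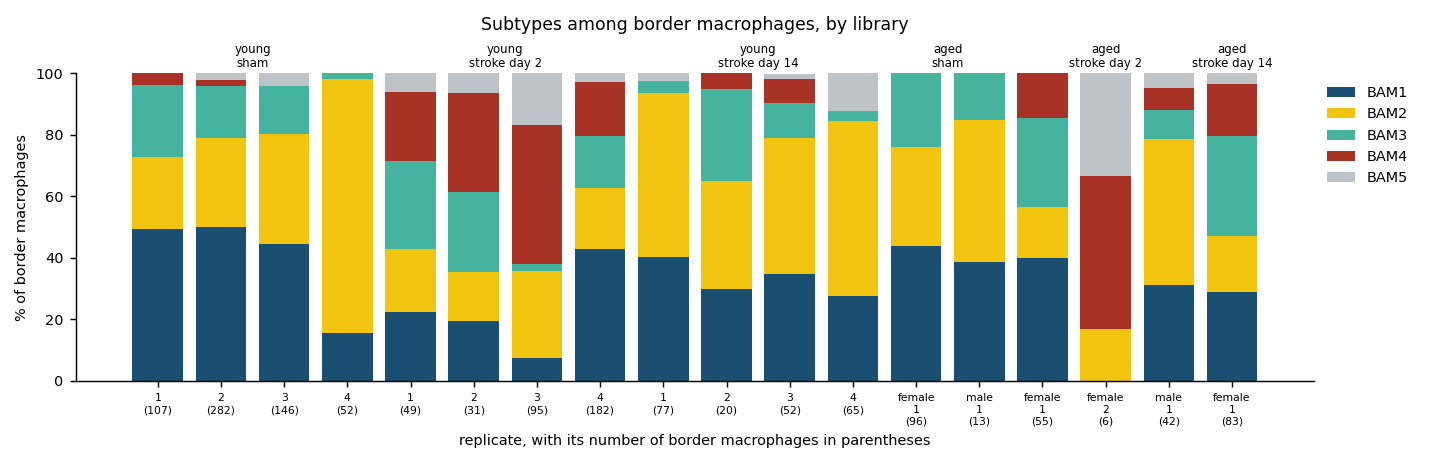
Percent of border macrophages in each deposited subtype, by library. Bars are libraries in group order, with the replicate and its number of border macrophages below. Young sham replicate 4 is 82.7% BAM2, and among the young groups BAM4 is most frequent at day 2.

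Stroke and sham border macrophages were then compared gene by gene, with counts summed over the cells of each library. Of 1313 genes tested, 35 (2.67%) were called at day 2 against sham, 1 (0.0762%) at day 14 against sham and 11 (0.838%) at day 14 against day 2 (edgeR adjusted p under 0.05). In the blocked fit, where the replicate number is a term, 2 genes were called at day 2 and 1 at day 14 against day 2. All 7 identity genes entered these tests, and none was called in the 3 comparisons, nor by DESeq2. Other fits called Lyve1 (with no filter on low counts) and Mrc1 (with BAM2 cells left out), as given below. Unadjusted p values under 0.05 were found for 301, 79 and 215 genes. The median log2 difference (the fold change on the log2 scale, first group over second) of the 7 was 0.17, -0.43 and -0.78, against 0.01, 0.00 and -0.03 for all genes tested. DESeq2 moved the last to 0.14. On simulated data, the edgeR fit mostly missed log2 differences of 1 in these cells.

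Among the scavenger and uptake receptors, Mrc1 stood at 3948, 5659, 5701 and 1163 CPM in sham replicates 1 to 4, at 3643, 2739, 1160 and 2808 at day 2, and at 1937, 4573, 3272 and 2833 at day 14. The other 3 sham libraries, replicates 1 to 3, were above every day 2 library, and sham replicate 4 was as low as day 2 replicate 3. edgeR put Mrc1 at a log2 difference of -0.73 (SE 0.45, adjusted p 0.358) at day 2, and -1.08 (adjusted p 0.139) without sham replicate 4. With BAM2 cells left out, which also removes sham replicate 4 and day 14 replicate 2, Mrc1 passed the threshold (-1.24, SE 0.33, edgeR adjusted p 0.0497, where 5.8% of all genes were called). BAM2 rests partly on this gene, so the value is a description. At day 14 it was -0.43 against sham (SE 0.45, adjusted p 0.93). Cd163 stood at 1233, 527.8, 562.3 and 0 CPM in sham, 659.8, 569.5, 135.6 and 420.5 at day 2, and 307.8, 0, 310.3 and 53.0 at day 14. All 4 day 14 libraries were below sham replicates 1 to 3. Its edgeR log2 difference was -0.57 (SE 0.64, adjusted p 0.613) at day 2 and -1.51 (SE 0.70, adjusted p 0.804) at day 14. The day 2 value was 0.03 without sham replicate 1 and -0.91 without sham replicate 4, and the day 14 value was -1.84 (adjusted p 0.513) without sham replicate 4. For Mrc1 the day 14 value without that library was -0.78 (adjusted p 0.795).

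Lyve1, the hyaluronan receptor, was low in all day 14 libraries. Its level was 1596, 1257, 397.8 and 7.02 CPM in sham, 690.1, 1226, 311.0 and 1662 at day 2, and 199.6, 0, 154.7 and 123.4 at day 14. Every day 14 library was below every day 2 library, and sham overlapped both. The edgeR estimate for Lyve1 was a log2 difference of 0.17 at day 2 against sham (SE 0.69, adjusted p 0.894), -2.50 at day 14 against sham (SE 0.81, adjusted p 0.553) and -2.68 at day 14 against day 2 (SE 0.82, adjusted p 0.137). Without the filter on low counts, both day 14 differences passed the threshold (-2.75, adjusted p 0.013, and -2.86, adjusted p 0.00692). Without sham replicate 4 they were -2.86 (adjusted p 0.27) and -2.64 (adjusted p 0.0765). The day 2 value changed sign without sham replicate 3 (-0.07), sham replicate 4 (-0.22) or day 2 replicate 4 (-0.30), and without BAM2 cells (-0.46). Cells with at least 0.5 counts of Lyve1 made up 24.5% of border macrophages in sham, 30.5% at day 2 and 7.94% at day 14, at median depths of 520, 760 and 700 counts. BAM2, where Lyve1 was lowest in the pool of all young libraries, was 50.5% of border macrophages at day 14 and 21.8% at day 2. At day 14 alone, Lyve1 stood at 30.67 CPM in BAM2 and at 0 in BAM3 (17 cells) and BAM5 (11 cells). Lyve1 was also lower at day 14 within pooled BAM1, at 1738, 1450 and 424.3 CPM in sham, day 2 and day 14 cells, with 78 of the 102 day 2 cells from replicate 4. By library the BAM1 levels overlapped, at 0.455 to 2368 CPM in sham, 171.6 to 1588 at day 2 and 0 to 565.1 at day 14. With BAM2 cells left out, which also removes sham replicate 4, its edgeR log2 difference was -2.11 (SE 0.63, adjusted p 0.456) at day 14 against sham and -1.65 (SE 0.61, adjusted p 0.167) against day 2. The subtypes rest partly on this gene, so these values are a description.

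Pf4, the chemokine, stood at 3814, 3227, 2832 and 246.9 CPM in sham, 3879, 3939, 3473 and 6277 at day 2, and 1798, 2482, 4536 and 1268 at day 14. Day 2 exceeded sham in most libraries, with replicate 4 the highest and sham replicate 4 the lowest. For Pf4, edgeR gave a log2 difference of 0.75 at day 2 (SE 0.54, adjusted p 0.428), and 0.33 (adjusted p 0.654) without sham replicate 4. Between day 14 and day 2 it was -0.78 (SE 0.55, adjusted p 0.524). Markers of platelets, which also carry Pf4, summed to 0 to 7.45 CPM in sham border macrophages and 0 to 32.13 CPM at day 2. Cbr2, the reductase, was at 1129, 1130, 759.4 and 127.8 CPM in sham, 1784, 1315, 1541 and 1886 at day 2, and 430.4, 834.1, 1572 and 299.3 at day 14. The day 2 and sham libraries did not overlap. Its edgeR log2 difference was 0.97 (SE 0.52, adjusted p 0.281) at day 2 against sham, 0.61 (adjusted p 0.47) without sham replicate 4, and -1.05 (SE 0.54, adjusted p 0.349) at day 14 against day 2.

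F13a1, the clotting factor subunit, was at 1437, 1713, 1603 and 629.9 CPM in sham, 1261, 1400, 1120 and 1873 at day 2, and 595.6, 1464, 1239 and 220.8 at day 14. The groups overlapped. Its edgeR log2 difference was -0.70 (SE 0.47, adjusted p 0.898) at day 14 against sham and -0.71 (SE 0.47, adjusted p 0.474) against day 2, the first being -0.95 (adjusted p 0.795) without sham replicate 4. Ms4a7 was the steadiest in sham, at 1324, 1207, 1225 and 1187 CPM, and stood at 2020, 1231, 1767 and 1039 at day 2 and 1051, 1998, 2057 and 1684 at day 14. Stroke libraries lay on both sides of the sham range at both times. edgeR put Ms4a7 at a log2 difference of 0.25 (SE 0.31, adjusted p 0.642) at day 2 and 0.44 (SE 0.31, adjusted p 0.898) at day 14 against sham, the first being -0.06 with BAM2 cells left out. Between the stroke times it was 0.19 for Ms4a7 (SE 0.31, adjusted p 0.842), 0.30 for Mrc1 (SE 0.46, adjusted p 0.818) and -0.93 for Cd163 (SE 0.72, adjusted p 0.568). These 3 directions were not stable: Ms4a7 was at -0.07 with no filter, Mrc1 at -0.01 without day 2 replicate 3, and Cd163 at 0.15 with BAM2 cells left out. Leaving out BAM2 cells also removed day 14 replicate 2, where Cd163 was at 0 CPM.

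**Figure D3:**
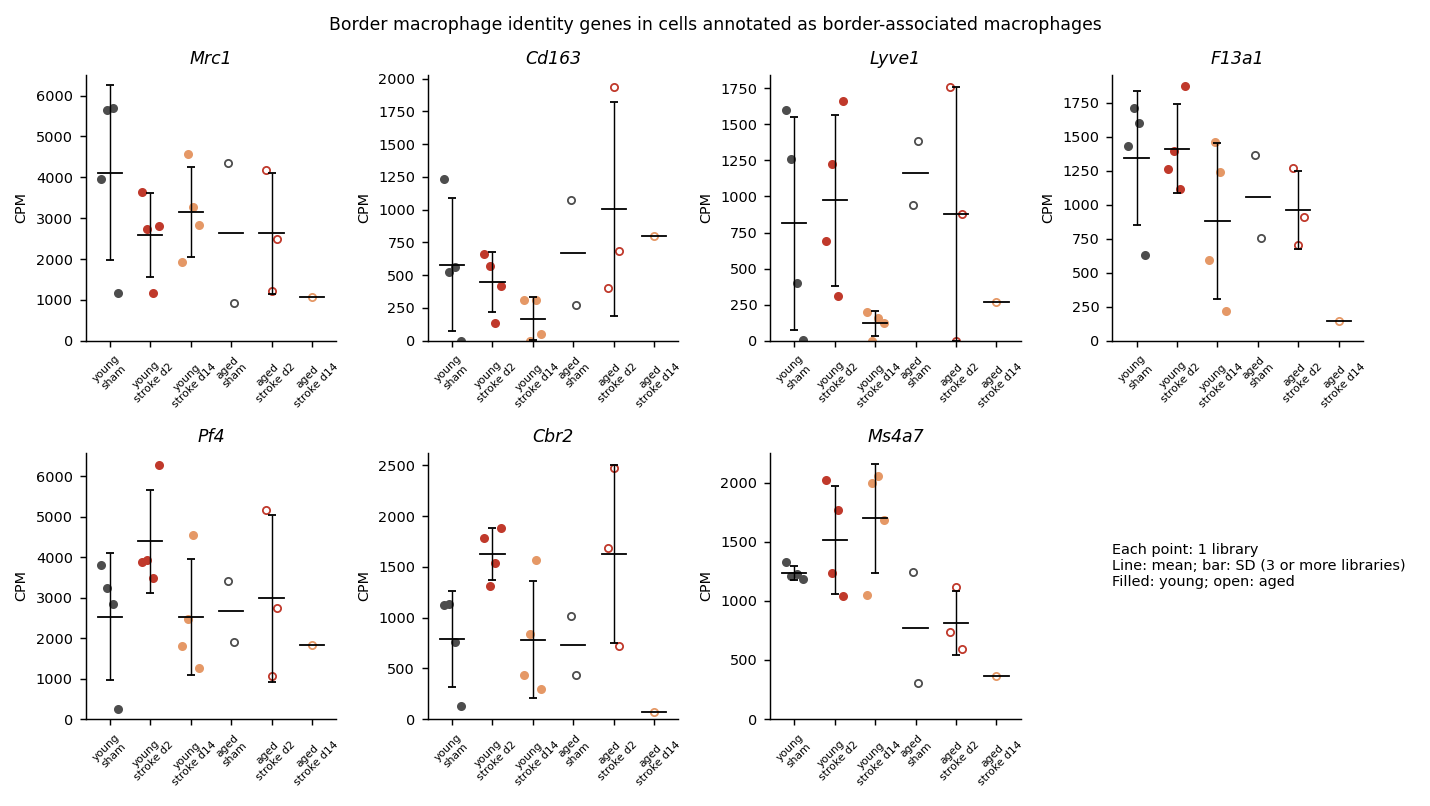
CPM of each of the 7 genes in cells annotated as border macrophages, by group, on linear axes. Points are libraries, lines are means and bars are SDs where a group has 3 or more libraries. Among young libraries, Lyve1 at day 14 lies below all day 2 libraries, and sham replicate 4 is the lowest young sham point for 7 of 7 genes.

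Of 20 other border macrophage genes, 16 were tested in these cells and none was called in any of the 3 comparisons. Their median log2 difference was -0.34 at day 2 and -0.16 at day 14 against sham, and -0.51 between the stroke times. The 3 with the highest sham level were Dab2, an endocytic adaptor, at 1707 ± 583 CPM in sham (SD, n = 4), 2174 ± 369 at day 2 and 1733 ± 647 at day 14; Maf, a transcription factor of resident macrophages, at 1280 ± 1126, 1007 ± 646 and 1212 ± 731; and Stab1, a scavenger receptor, at 718 ± 488, 1149 ± 908 and 783 ± 402. The 4 MHC class II genes were not called either. Against sham, 4 of 4 were below 0 at day 2 (median log2 difference -1.06) and 4 of 4 above 0 at day 14 (median 0.45). Between the stroke times 4 of 4 were above 0 (median 1.51), from H2-Eb1 at 1.33 (SE 0.50, edgeR adjusted p 0.213) to H2-Ab1 at 1.69 (SE 0.51, adjusted p 0.137). The share of BAM2, the subtype rich in these genes, moved the same way (34.4%, 21.8% and 50.5%), and its part in the values was not tested.

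After stroke, a smaller part of the Ms4a7 and F13a1 counts lay in border macrophages, on average. Border macrophages held 86.2%, 95.9%, 92.3% and 54.7% of the Ms4a7 counts of sham replicates 1 to 4. At day 2 they held 9.43%, 2.6%, 5.29% and 22.8%, which is 10.0% ± 8.96 (SD, n = 4) and 5.77% without replicate 4. For monocyte-derived cells the day 2 value was 88.2% ± 8.53, and at day 14 both types held 5.87% ± 1.3 and 85.5% ± 3.01. F13a1 counts lay in border macrophages at 45.7%, 85.0%, 64.8% and 25.5% in sham, 3.71%, 2.39%, 5.74% and 26.3% at day 2, and 7.65% ± 3.49 at day 14. The F13a1 mean at day 2 was 9.54% ± 11.3, and 3.95% without replicate 4, which lay above sham replicate 4. Sham replicate 4 was the lowest sham library for Mrc1, F13a1, Pf4, Cbr2 and Ms4a7. The Pf4 share was 95.6% to 98.3% in sham replicates 1 to 3 and 31.9% in replicate 4, then 32.3% ± 20.0 at day 2 and 53.6% ± 13.8 at day 14, when microglia held a further 19.3% ± 10.5. For Mrc1, sham replicates 1 to 3 gave 85.5% to 92.7% and replicate 4 gave 27.4%, against 56.5% ± 23.8 and 60.4% ± 13.6 after stroke. The Cbr2 share was 95.4% to 100% in sham replicates 1 to 3 and 62.2% in replicate 4, then 52.9% ± 28 and 56.4% ± 10.3. In sham replicates 1 to 3, border macrophages held 99.3% to 100% of the Lyve1 counts and 97.3% to 97.9% of the Cd163 counts. Replicate 4 had about 0.1 counts of Lyve1 and none to speak of for Cd163, so it gives no usable share. At day 2 the shares were 88.1% ± 9.79 for Lyve1 and 71.9% ± 20.5 for Cd163. At day 14, replicate 2 had no count of either gene, and replicates 1, 3 and 4 gave 86.9%, 100% and 43.4% for Lyve1 and 87.5%, 86.1% and 21.3% for Cd163, the replicate 4 values resting on 6.8 and 5.9 counts. These shares follow both the level per cell and the number of cells sorted, which changed between groups.

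**Figure D4:**
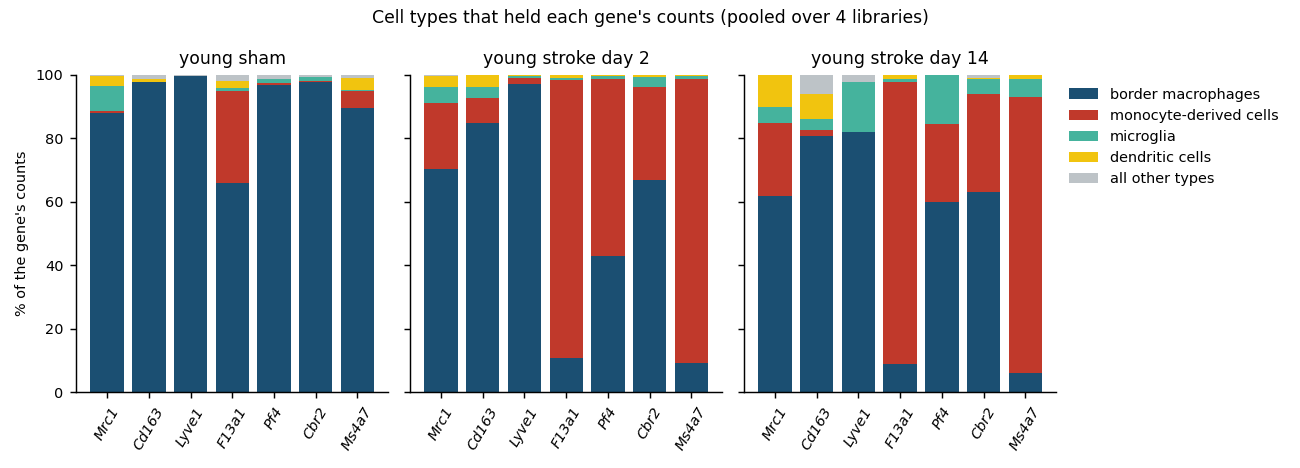
Percent of the counts of each gene that lay in each annotated cell type, pooled over the 4 libraries of each young group. Colours are cell types and bars sum to 100%. Ms4a7 and F13a1 counts lie mostly in monocyte-derived cells after stroke, and Lyve1 counts mostly in border macrophages at each time.

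In monocyte-derived cells, the macrophages and monocytes that enter from blood, 5 of the 7 genes passed the filter on low counts, and Cd163 and Lyve1 did not. Of 8080 genes tested, 542 (6.71%) were called at day 2 against sham, 416 (5.15%) at day 14 against sham and 145 (1.79%) at day 14 against day 2; in the blocked fit the last count was 469. The split of higher against lower calls depended on scaling: at day 2 it was 457 to 85 with TMM, 180 to 175 without and 322 to 197 with DESeq2. The median of all genes moved from 0.29 with TMM to -0.13 without and -0.39 with DESeq2, and at day 14 from 0.28 to -0.11 and -0.17 (340 to 76, 200 to 199 and 317 to 148 calls). Between the stroke times DESeq2 moved the median from 0.04 to 0.25. Ms4a7, Pf4 and F13a1 kept their directions under each scaling. Ms4a7 rose and F13a1 fell at day 14, and Ms4a7 rose at day 2. Sham values rest on 43 to 99 cells a library. Pf4 and Cbr2 held 6 and 1 pooled counts in sham and entered the test through their stroke libraries alone, so that the call of Pf4 at day 2 is given with its levels and not as support. Markers of other cells moved with the groups: the 5 neutrophil markers summed to 0 to 3160 CPM in sham (2 to 4 of them above 0), 60.74 to 213.7 at day 2 and 1.366 to 37.06 at day 14. The 8 microglial markers summed to 0 to 656.7 CPM in sham (5 to 8 above 0), 270.3 to 819.7 at day 2 and 370.9 to 2322 at day 14, and the part of these cells in the values was not tested.

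Ms4a7 stood at 148.7, 148.8, 23.6 and 103.6 CPM in sham, 325.0, 513.2, 720.2 and 460.0 at day 2, and 1006, 762.9, 974.5 and 1196 at day 14. No library of one group overlapped another group, and levels were in the order sham, day 2, day 14. The edgeR estimate for Ms4a7 was a log2 difference of 2.54 (SE 0.42, adjusted p 0.00214) at day 2 and 3.45 (SE 0.42, adjusted p 0.000278) at day 14 against sham. Between the stroke times it was 0.91 (SE 0.34, adjusted p 0.254), and 0.98 (adjusted p 0.018) with DESeq2. Among subtypes at day 14, Ms4a7 was highest in MdC6 (1520 CPM, 985 cells) and lowest in MdC3 (128.5 CPM, 380 cells), and within MdC3 it stood at 36.45, 67.82 and 128.5 CPM in sham, day 2 and day 14. MdC3 made up 243 of the 318 sham cells and 1064 of the 7225 day 2 cells.

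Pf4 was at 8.72, 12.6, 0 and 253.8 CPM in sham, 127.2, 377.7, 210.3 and 581.7 at day 2, and 58.7, 30.2, 43.1 and 53.0 at day 14. Day 2 was above day 14 in all libraries, and sham replicate 4 alone overlapped day 2. For Pf4, edgeR gave a log2 difference of 3.72 (SE 0.83, adjusted p 0.0148) at day 2, 0.82 (SE 0.94, adjusted p 0.76) at day 14 against sham and -2.90 (SE 0.57, adjusted p 0.0148) at day 14 against day 2. Dropping sham replicate 1, 2 or 3 ended the first call (adjusted p 0.0863, 0.0583 and 0.0557). Dropping day 2 replicate 4 (-2.35, adjusted p 0.0793), day 14 replicate 1 (0.052) or day 14 replicate 4 (0.0512) ended the last. Without sham replicate 4, the day 2 value was 5.65 (adjusted p 0.00514) and the day 14 value against sham 2.68 (adjusted p 0.243). Since Pf4 entered the test through its stroke libraries alone, its values against sham are a description and not support. Platelet markers summed to 0 CPM in sham and to 0.417 to 8.68 CPM at day 2 in these cells. By subtype at day 2, Pf4 reached 659.3 CPM in MdC1 (2267 cells) and 10.89 in MdC3 (1064 cells).

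F13a1 stood at 1153, 970.8, 1380 and 1108 CPM in sham, 553.1, 645.1, 415.9 and 685.7 at day 2, and 308.8, 329.3, 438.2 and 406.0 at day 14. Both stroke groups lay below all sham libraries. edgeR put F13a1 at a log2 difference of -0.50 (SE 0.26, adjusted p 0.30) at day 2 and -1.17 (SE 0.26, adjusted p 0.0158) at day 14 against sham, and -0.67 (SE 0.25, adjusted p 0.259) between the stroke times. At day 2 it was called without TMM (-0.98, adjusted p 0.0223) and with DESeq2 (-0.71, adjusted p 0.0298). Dropping sham replicate 1, 2 or 3 (adjusted p 0.0544, 0.0707 and 0.103), day 14 replicate 2 (0.0976) or 4 (0.0626), or the filter (0.0986) ended the day 14 call of F13a1. Within MdC3, the subtype that held most sham cells, F13a1 stood at 1257, 953.9 and 655.1 CPM in sham, day 2 and day 14. Pooled counts of Cbr2, rounded to whole counts, were 1 in sham and 299 at day 2, which gives a pooled ratio of 7.39 (95% counting interval 1.32 to 293). Before rounding, its pooled levels were 6.53 and 32.31 CPM, so the ratio depends on the rounding. For Cbr2, edgeR gave 3.28 (SE 1.02, adjusted p 0.07). Within the high side of the mitochondrial split described below for microglia, edgeR gave Ms4a7 2.99 at day 2 (adjusted p 0.000881) and 3.77 at day 14 (adjusted p 8.66e-05). There Pf4 had 3.35 at day 2 (edgeR adjusted p 0.00395) and F13a1 -1.06 at day 14 (adjusted p 0.174). The Pf4 value is of a gene that entered the test through its stroke libraries alone, so it is no support. Of the 20 other border macrophage genes, 13 were tested in these cells. The filter on low counts admits genes that are high in stroke libraries alone, so the calls of this list are a description. At day 2, 3 were higher (Stab1, Clec4n and Dab2) and 1 lower (Hpgd), where 5.66% of all genes were called higher and 1.05% lower, and the same 4 were called without TMM and by DESeq2. In log2 units, edgeR found a difference of 2.48 for Stab1 (SE 0.40, adjusted p 0.00184) and 1.94 for Dab2 (SE 0.35, adjusted p 0.00407). At day 14, 1 was higher (Stab1) and none lower, where 4.21% of all genes were called higher and 0.941% lower.

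**Figure D5:**
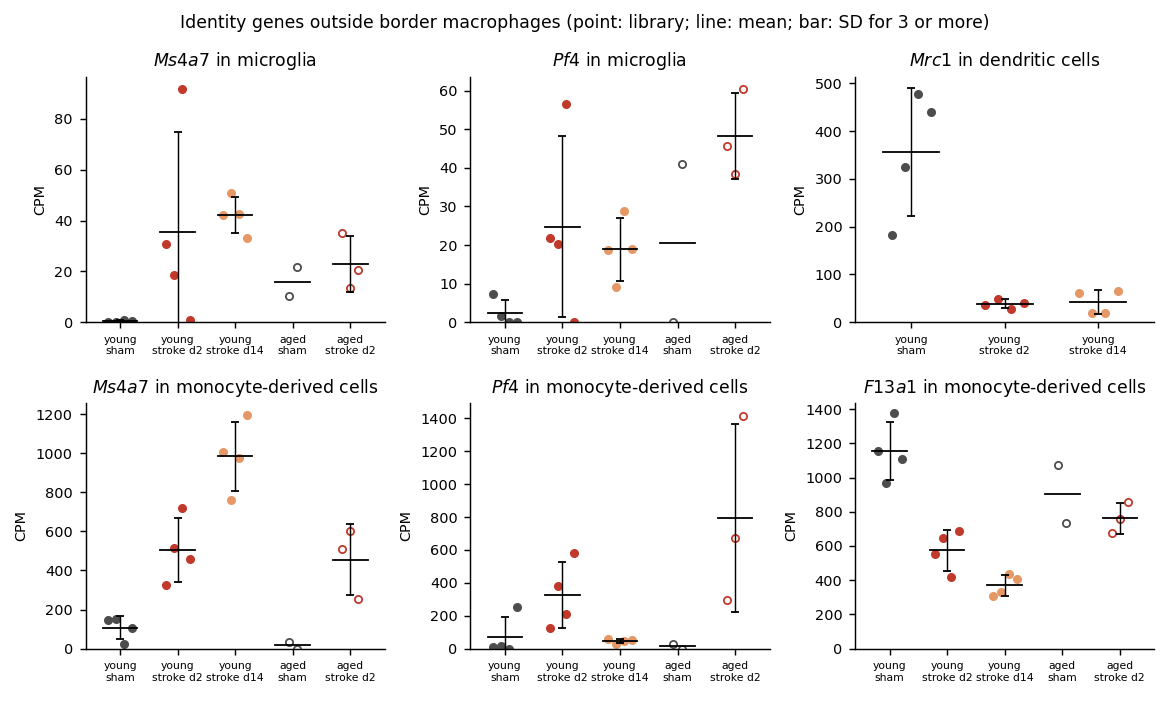
CPM of 4 of the genes in microglia, dendritic cells and monocyte-derived cells, by group, on linear axes. Points are libraries, lines are means and bars are SDs for 3 or more libraries; open points are aged. Ms4a7 in monocyte-derived cells separates all 3 young groups, and Mrc1 in dendritic cells is lower in all 8 stroke libraries.

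In microglia, the resident macrophages of the brain tissue, 3 of the 7 genes were tested (Mrc1, Pf4 and Ms4a7), and all 7 stayed far below border macrophages. Of 10145 genes tested, 3182 (31.4%) were called at day 2 against sham, 1544 (15.2%) at day 14 against sham and 703 (6.93%) between the stroke times. Without TMM the median over all genes went from -0.04 to -0.49 at day 14 and from -0.05 to -0.22 at day 2. Calls higher and lower went from 1071 and 473 to 670 and 2755 at day 14, and from 1588 and 1594 to 1273 and 2118 at day 2 (1436 and 2164 with DESeq2). Between the stroke times the median moved from 0.10 to -0.19 and the calls from 352 and 351 to 202 and 955. Ms4a7, Pf4 and Mrc1 kept their directions under each scaling. Ms4a7 and Pf4 passed the filter through their stroke libraries alone, so their calls are given with the levels and not as support. Ms4a7 stood at 0.15, 0, 1.07 and 0.34 CPM in sham, 30.6, 18.7, 91.7 and 1.06 at day 2, and 42.0, 50.9, 42.7 and 33.3 at day 14. All day 14 libraries were above all sham libraries, whereas day 2 ran from 1.06 CPM (replicate 4), inside the sham range, to 91.7 (replicate 3). The value of replicate 3 lay above every day 14 library but rests on 2.4 counts in 58 cells. Pooled counts of Ms4a7 were 2 in sham, 48 at day 2 and 260 at day 14, which gives pooled ratios to sham of 30.5 (95% counting interval 7.99 to 259) and 116 (31.9 to 966). In log2 units, edgeR found a difference of 6.05 (SE 1.13, adjusted p 0.00184) at day 2 and 7.64 (SE 1.02, adjusted p 0.000223) at day 14. With only sham and day 2 libraries in the fit, Ms4a7 did not pass the filter on low counts and had no value, and with no filter in the fit of all 3 groups it had 6.03 at day 2 (adjusted p 0.000572) and 7.61 at day 14 (adjusted p 2.15e-05). Without day 2 replicate 3 the values of Ms4a7 were 5.94 (adjusted p 0.00349) and 7.67 (adjusted p 0.000584). At day 14, 3.31% of microglia held at least 0.5 counts of Ms4a7, against 0.821% of T cells, at median depths of 636 and 548 counts. At day 2 the shares were 1.11% and 0.93%, at depths of 916 and 548 counts, which is near background. At day 14, Ms4a7 stood at 48.51 CPM in subtype Mg3 (3415 cells) and at 0 in Mg1.

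The libraries fell into a mitochondrial split, by the highest mitochondrial percentage of any deposited cell (below or above 10). In the young libraries, the study identifiers of the deposited metadata do not interleave between the sides of the split. What the split reflects is not stated in the labels. The low side held sham replicate 1 and replicates 1 and 2 of both stroke groups. Within the high side alone, Ms4a7 in microglia had an edgeR log2 difference of 2.91 (edgeR adjusted p 0.0975) at day 2 against sham and 4.27 (adjusted p 0.000652) at day 14 against day 2, where all libraries gave 1.59 (SE 0.69, adjusted p 0.192). Monocyte markers summed to 0.0002 to 19.21 CPM in sham microglia, 0 to 776.6 at day 2 and 0 to 68.28 at day 14. The 776.6 belonged to day 2 replicate 3, which also had the highest Ms4a7 level, on 2.4 counts. The part of these cells in the microglial values was not tested.

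Pf4 in microglia was at 7.20, 1.73, 0 and 0.18 CPM in sham, 21.9, 20.4, 56.7 and 0.13 at day 2, and 18.8, 9.06, 28.9 and 18.9 at day 14. The 56.7 of day 2 replicate 3 rests on 1.5 counts. Day 14 was above sham in all libraries, and 2.07% of day 14 microglia held at least 0.5 counts of Pf4 against 0% of T cells. The edgeR estimate for Pf4 was a log2 difference of 2.53 (SE 1.11, adjusted p 0.0951) at day 2 and 3.34 (SE 1.01, adjusted p 0.0408) at day 14, with a pooled ratio of 7.34 at day 14. Dropping sham replicate 2, 3 or 4 (adjusted p 0.122, 0.115 and 0.123), day 2 replicate 1 or 3 (0.0611 and 0.0618), day 14 replicate 1 or 3 (0.0759 and 0.087), or TMM (0.0503) ended the day 14 call. The day 2 value passed the edgeR threshold once sham replicate 1 (4.13, adjusted p 0.038) or day 2 replicate 4 (3.21, adjusted p 0.0199) was dropped, and was -0.47 within the high side of the mitochondrial split. Mrc1 in microglia stood at 24.6, 33.7, 37.6 and 29.9 CPM in sham, 34.9, 21.8, 11.2 and 7.70 at day 2, and 4.99, 3.17, 0 and 18.1 at day 14. Day 14 was below sham in all libraries, with an edgeR log2 difference of -1.82 (SE 0.70, adjusted p 0.0892). It passed the threshold once day 14 replicate 4 was dropped (-3.01, adjusted p 0.0117) and without TMM (-2.24, adjusted p 0.032). At day 2 the Mrc1 value was -0.51 (SE 0.70, adjusted p 0.606), and -1.77 (adjusted p 0.0362) within the high side.

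Of the 20 other border macrophage genes, 9 were tested in microglia. The filter on low counts admits genes that are high in stroke libraries alone, so the calls of this list are a description and not support. At day 14 against sham, 5 were higher (Folr2, Gas6, Colec12, Dab2 and Cp) and 2 lower (Stab1 and Hpgd), where 10.6% of all genes were called higher and 4.66% lower. The calls of all genes turned to mostly lower without TMM, as given above; there 4 of the list were higher (the same without Gas6) and 4 lower (Ccl24 and Maf in addition). In log2 units, edgeR found a difference of 4.81 for Folr2, a folate receptor (SE 0.70, adjusted p 0.000443), and 6.90 for Colec12, a scavenger collectin (SE 0.67, adjusted p 1.51e-05). At day 2, 2 were higher and 2 lower, where 15.7% of all genes were called higher and 15.7% lower.

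In cells annotated as dendritic cells, which present antigen to T cells, Mrc1 was lower after stroke. Of 4365 genes tested, 44 (1.01%) were called at day 2 against sham, 67 (1.53%) at day 14 against sham and 39 (0.893%) between the stroke times, the last being 111 in the blocked fit. With DESeq2 the median over all genes went from 0.05 to -0.13 at day 2 and -0.16 at day 14, and the day 2 calls from 30 higher and 14 lower to 60 and 46. The level of Mrc1 was 181.7, 324.5, 478.1 and 439.8 CPM in sham, 37.0, 49.0, 27.5 and 41.3 at day 2, and 62.0, 20.1, 20.2 and 65.9 at day 14. All 8 stroke libraries were below all 4 sham libraries, and the share of dendritic cells with at least 0.5 counts of Mrc1 was 17.3%, 3.12% and 2.75% (T cells 1.35%, 0% and 0.117%). In log2 units, edgeR found a difference of -3.17 (SE 0.48, adjusted p 0.00747) at day 2 and -3.03 (SE 0.46, adjusted p 0.0074) at day 14, and each alternative run kept both calls. Within the high side of the mitochondrial split the edgeR values were -3.51 (adjusted p 0.00389) and -3.38 (adjusted p 0.00419). In cells of at least 800 counts the sham mean of Mrc1 was 212.3 CPM, against 356.0 in all. Among sham dendritic cells, Mrc1 was highest in subtype DC4 (1294 CPM, 59 of 284 cells). In DC4 it stood at 57.30 at day 2 (124 of 1282 cells) and 128.6 at day 14 (198 of 1712 cells). The 20 other border macrophage genes summed to 1481 to 2377 CPM in sham dendritic cells, 881.6 to 1383 at day 2 and 426.6 to 828.4 at day 14, and the monocyte list to 2066 to 2932, 2585 to 5377 and 3180 to 5340. The 6 dendritic cell markers summed to 1262 to 1967 CPM in sham, 722.1 to 1327 at day 2 and 1038 to 2147 at day 14. The 5 neutrophil markers summed to 0 to 336.7 CPM in sham, 7.903 to 38.94 at day 2 and 2.061 to 4.097 at day 14. The part of other cells and of the mix of subtypes in the difference was not tested. F13a1 was at 126.1, 29.3, 95.2 and 183.9 CPM in sham, 67.5, 25.6, 41.9 and 35.5 at day 2, and 8.20, 18, 0.82 and 32.3 at day 14. Sham replicate 2 overlapped both stroke groups. Its edgeR log2 difference was -1.28 (SE 0.67, adjusted p 0.388) at day 2 and -2.96 (SE 0.73, adjusted p 0.0664) at day 14. The day 14 difference of F13a1 passed the threshold in the blocked fit (-2.97, adjusted p 0.045), in DESeq2 (-2.85, adjusted p 0.0179), and once day 14 replicate 4 was dropped (-3.50, adjusted p 0.0404).

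Aged border macrophages could not be tested, because aged sham male 1 held 13 of them and only 1 sham library remained. Lyve1 stood at 1387 and 937.9 CPM in aged sham male 1 and female 1, at 877.4, 1757 and 0.817 in day 2 male 1, female 1 and female 2, and at 268.6 in the day 14 library. Day 2 female 2 held 6 border macrophages. In the same order, Mrc1 was at 935.0 and 4362 CPM in aged sham, 2479, 4174 and 1225 at day 2 and 1061 at day 14. Cd163 was at 271.1 and 1075, then 687.0, 400.4 and 1935, then 797.2 CPM. The other 4 genes ranged in aged border macrophages from 64.75 CPM (Cbr2, day 14) to 5164 CPM (Pf4, day 2 female 1).

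In aged monocyte-derived cells, 209 of 8167 genes (2.56%) were called at day 2 against sham, Pf4 and Ms4a7 among them. Calls were 189 higher and 20 lower, 51 and 56 without TMM, and 109 and 129 with DESeq2, with the median of all genes at 0.44, -0.22 and -0.58. Pf4 was at 0 and 26.9 CPM in the sham libraries and at 1418, 293.2 and 675.7 at day 2. Ms4a7 was at 0 and 31.3 CPM in sham and at 252.2, 512.1 and 603.9 at day 2. For both genes no stroke library overlapped sham. The 7 platelet markers summed to 0 CPM in these sham libraries and to 1.36 to 44.03 at day 2 (1 to 3 of them above 0), and the 5 neutrophil markers to 656.1 to 1212 and 190.9 to 5189; their part in the values was not tested. Each gene had 1 pooled count in sham and entered the test through other groups, so both calls are given with the levels and not as support. The pooled levels give ratios of 46.4 for Pf4 (95% counting interval 8.32 to 1840) and 31.9 for Ms4a7 (5.71 to 1260). In log2 units, edgeR found a difference of 6.32 for Pf4 (SE 1.48, adjusted p 0.0313) and 5.55 for Ms4a7 (SE 1.02, adjusted p 0.00948). Dropping aged sham male 1 (Pf4 adjusted p 0.283, Ms4a7 0.128) or female 1 (0.166 and 0.0769) ended both calls, and dropping aged day 2 male 1 that of Pf4 (0.0553). The call of Pf4 was also lost without TMM (5.69, adjusted p 0.0811) and with only the 2 aged groups in the fit (6.18, adjusted p 0.0514), whereas Ms4a7 passed the threshold in both (adjusted p 0.022 and 0.0384). In aged microglia, 255 of 11096 genes (2.3%) were called and none of the 7. Calls were 197 higher and 58 lower, and 274 and 217 with DESeq2, which moved the median from -0.02 to -0.19. Ms4a7 was at 21.6 and 10.2 CPM in aged sham microglia, and at 20.7, 35.1 and 13.4 at day 2 (edgeR log2 difference 0.80, SE 0.94, adjusted p 0.759); Pf4 had 1.67 (SE 1.43, adjusted p 0.632). The stroke effect was not called as different between ages for any gene in either cell type by edgeR with the filter on low counts and all libraries, with unadjusted p under 0.05 for 623 genes in microglia and 473 in monocyte-derived cells; DESeq2 called 1 gene in the latter. With no filter edgeR called 17 genes in microglia and 6 in monocyte-derived cells, none of them an identity gene, and leaving out 1 library gave 0 to 1 in microglia. The difference was -5.21 for Ms4a7 in microglia (SE 1.48, adjusted p 0.768), and 2.54 for Pf4 (SE 2.29, adjusted p 0.884) and 2.98 for Ms4a7 (SE 1.36, adjusted p 0.828) in monocyte-derived cells. Age cannot be told apart from the separate tables. Both aged groups of the fit held a male library, and sex as a covariate moved none of the 15 aged results it was run on. All young libraries are male, so the sex term rests on the aged libraries alone. It cannot show a stroke effect that differs by sex, so no conclusion on sex is drawn.

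Across 28 pools of cell type by young group, the genes with the pattern most like each identity gene were listed from 5899 genes. The measure was Pearson's r of log2(CPM + 1), and the pools share libraries. For Lyve1 these were Mmp13 (0.933), Fcna (0.931) and Cd209f (0.893), and for Cbr2 Mmp13 (0.935), Ccl24 (0.933) and Ms4a14 (0.928). Cd163 was closest to Spic (0.904), Fcna (0.899) and Pla2g2d (0.893), and Mrc1 to Ccl24 (0.81), Spic (0.80) and Mgl2 (0.791). Pf4 was closest to Ccl7 (0.921), Ms4a14 (0.874) and Ccl24 (0.864), F13a1 to Serpinb8 (0.91), Clec4a1 (0.876) and Ccl7 (0.876), and Ms4a7 to Lyz1 (0.899), Ccl7 (0.87) and Siglec1 (0.847). Among the 7 genes themselves, r ran from 0.60 for Lyve1 with Ms4a7 to 0.895 for Pf4 with Cbr2.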

How the data were processed

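Single cells of 18 brain libraries were analysed, and 11 blood libraries were not used. The deposited tables hold expected counts per gene and cell, most of them not whole (by library, exactly whole values made up 0.304% to 4.778%, and those with a fraction over 0.9 made up 38.19% to 86.63%). The step that made them so is not given in the sources used here, and it bears on the shares of cells with at least 0.5 counts, background shares included. Their metadata give cell types at 2 levels, a percent of mitochondrial counts per cell and a study identifier. The submitters' processing notes name mm10 and Seurat; the aligner and the filters are not given in the sources used here. The 7 genes and all lists were chosen with earlier results of these data known.

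All deposited cells were kept, with the deposited annotation and no doublet caller. For each library and cell type, counts were added up, scaled to CPM, and rounded for edgeR 4.0.16 (quasi-likelihood test, TMM, filterByExpr, libraries with at least 20 cells, Benjamini-Hochberg over all genes tested, calls at an adjusted p under 0.05, two-sided). Young fits held 3 groups and aged fits 4 day 2 groups on genes in both tables. The method was tested on simulated data. Log2 changes of 1 were mostly missed in each cell type, and those of 2 were mostly missed in monocyte-derived cells. In that simulated draw, calls in monocyte-derived cells held more false ones than the threshold allows. The simulated spread was fixed and not taken from the data, and a single draw does not give the rate among the real calls. Libraries are pools of 4 to 5 hemispheres, and nothing says which share a day, so p values measure the spread between libraries. Named genes were the 7 members, 20 other border macrophage genes by count (the 3 highest in sham, with values), 4 MHC class II genes and the 3 genes most like each member. Folr2, Colec12, Stab1 and Dab2 outside border macrophages were named after their values were seen. Pooled ratios and their intervals use pooled counts rounded to whole counts, and the intervals cover counting error only. Gene positions are from GENCODE M21; Lyve1 has no promoter entry.

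Same-numbered day 2 and day 14 libraries deviated together (correlations 0.141 to 0.566 in border macrophages, 0.268 to 0.758 in monocyte-derived and 0.191 to 0.739 in dendritic cells), with the 2 sides of the mitochondrial split sharing numbers. In microglia the 4 correlations were 0.067, 0.55, 0.194 and 0.38. Since the first is not over 0.1, the numbers were not taken as pairing there, nor with sham. The main fits of every cell type used group means alone, and the numbers entered only through the replicate block, an alternative. For single genes, the block reversed 0 directions, ended 0 calls and added 1. Alternatives were DESeq2 1.42.0, no filter, no TMM, counts rounded up, at least 50 cells per library, compared groups only, sex as a covariate, cells of at least 800 counts, a mean over cells, the replicate block and each library left out. Chosen after seeing the data were the mitochondrial split, the fits by BAM2, levels without sham replicate 4, and shares with a library left out. Expected counts carry no stated strand.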

Additional observations from a re-analysis of the deposited data

Results flagged for a closer look

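In 4 of 67 groups of libraries tested, 1 library lay farther from the rest than Dixon's 95% critical value, and chance alone gives about 1 in 20. Pf4 in border macrophages was at 6277 CPM in young day 2 replicate 4, against 3473, 3879 and 3939 in the other 3 libraries. Pf4 in monocyte-derived cells was at 253.8 CPM in young sham replicate 4, against 8.721, 12.57 and 0. Cbr2 in microglia was at 2.443 CPM in young sham replicate 1, against 0, 0.1522 and 0. Mrc1 in monocyte-derived cells was at 113.0 CPM in young day 14 replicate 4, against 31.63, 36.43 and 39.06.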

How the results depend on the processing

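Each fit across all genes was repeated under the alternatives named in the processing. The counts below are of genes called, in the order day 2 against sham, day 14 against sham and day 14 against day 2, or of the 7 identity genes where stated, with the percent of all genes in the same fit that were called, and the cause of each shift was not tested. The main counts were 35, 1 and 11 in border macrophages, 3182, 1544 and 703 in microglia, 542, 416 and 145 in monocyte-derived cells, and 44, 67 and 39 in dendritic cells. Aged stroke against sham called 255 in microglia and 209 in monocyte-derived cells.

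With no filter on low counts, border macrophages had 19 calls at day 2 and 14 at day 14, and dendritic cells 124, 128 and 60. Without the filter 1 identity gene (Lyve1) was called in border macrophages at day 14 against sham (0.0954% of all genes) and 1 against day 2 (0.0817%), with Ms4a7 at -0.07 between the stroke times. Identity genes called became 3 at day 2 (3.71%) and 1 at day 14 (2.15%) in monocyte-derived cells and 2 at day 14 (0.751%) in dendritic cells. The aged counts became 393 in microglia and 326 in monocyte-derived cells, and 17 and 6 for the difference between ages. DESeq2 gave 17 in border macrophages at day 14 against day 2, 420 in monocyte-derived cells at day 14 against day 2, 106, 104 and 149 in dendritic cells and 491 in aged microglia. It called 3 identity genes in monocyte-derived cells at day 2 (2.84%) and 2 between the stroke times (2.3%), 2 in dendritic cells at day 14 (0.61%), and 1 gene as different between ages in monocyte-derived cells. Without TMM the counts were 3425 at day 14 and 1157 at day 14 against day 2 in microglia, 355 in monocyte-derived cells at day 2 (3 identity genes, 4.39%) and 107 in aged ones (1 identity gene, 1.31%). Counts rounded up gave 21 in border macrophages at day 14 against day 2, 75 and 102 in dendritic cells against sham, and 2 and 3 identity genes in microglia against sham (32.6% and 13.8%).

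Libraries of at least 50 cells gave 2 calls at day 14 and 5 at day 14 against day 2 in border macrophages. Fits of only the compared groups gave 3 and 1 there, 426 at day 14 against day 2 in microglia, 59 in dendritic cells, and in aged cells 0 in microglia and 94 in monocyte-derived cells (1 identity gene, 1.54%). Ms4a7, called in microglia at day 2 in the main fit, was not tested in the fit of only sham and day 2 libraries. With the mitochondrial split as a term, day 14 against day 2 gave 19 in border macrophages, 348 in monocyte-derived cells and 109 in dendritic cells, with 2 identity genes in dendritic cells at day 14 against sham (2.02%). In the libraries above the split alone, border macrophages had 13, 0 and 0 calls, monocyte-derived cells 259 at day 14 (1 identity gene, 4.14%, and 2 between the stroke times, 2.93%), and dendritic cells 96 and 27 against sham. There 2 identity genes were called in microglia between the stroke times (6.66%), and Pf4 in microglia was at -0.47 at day 2. Border macrophages other than BAM2, a subtype that rests partly on these genes, gave 56, 0 and 0 calls and 1 identity gene (Mrc1, 5.8%) at day 2, with Lyve1 at -0.46 and Ms4a7 at -0.06 at day 2 and Cd163 at 0.15 between the stroke times. That fit also lost sham replicate 4 and day 14 replicate 2, which held fewer than 20 such cells. BAM2 cells alone gave 0 at day 2 and 0 between the stroke times. A fit of BAM1 alone could not be run, since only 1 library in each stroke group reached the minimum of 20 such cells (78 at day 2 and 31 at day 14).

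With the replicate block, border macrophages had 2 calls at day 2 and 1 at day 14 against day 2, monocyte-derived cells 469 and dendritic cells 111 at day 14 against day 2, and 2 identity genes were called in dendritic cells at day 14 against sham (1.51%). The block moved no other count by over 1.5 times. Sex as a covariate moved none of the 15 aged results it was run on, and that term rests on the aged libraries alone.

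Leaving out each library in turn gave 2 to 52, 0 to 2 and 0 to 12 calls in border macrophages, 2094 to 3524, 791 to 2573 and 276 to 735 in microglia, 284 to 524, 246 to 415 and 45 to 191 in monocyte-derived cells, and 16 to 85, 15 to 71 and 0 to 35 in dendritic cells. Identity genes called ranged from 1 to 2 (19.7% to 32.8% of all genes) and 1 to 3 (7.17% to 24.3%) against sham in microglia, 1 to 2 (2.94% to 6.97%), 1 to 2 (2.55% to 5.87%) and 0 to 1 (0.612% to 2.7%) in monocyte-derived cells and 1 to 2 (0.291% to 1.61%) at day 14 in dendritic cells. Those of Ms4a7 and Pf4 in microglia and Pf4 in monocyte-derived cells against sham are of genes that entered through stroke libraries alone, so these counts are no support. Aged counts ranged from 0 to 357 in microglia (61 without day 2 female 1; 0 to 1 for the difference between ages) and 8 to 256 in monocyte-derived cells (18 without sham male 1, 123 without day 2 female 1; 0 to 2 identity genes, 0.0757% to 3.81%). The share of border macrophages among leukocytes differed between day 14 and day 2 by -1.49 to 1.08 percentage points, the last without day 2 replicate 4. In border macrophages at day 2 against sham, Cd163 ranged from -0.91 to 0.03, the last without sham replicate 1, and Lyve1 from -0.30 to 0.68, with -0.07 without sham replicate 3, -0.22 without sham replicate 4 and -0.30 without day 2 replicate 4. Mrc1 between the stroke times ranged from -0.01, without day 2 replicate 3, to 0.50. Of all alternatives for single genes, 985 kept the direction and the side of the threshold, 20 gained a call, 29 lost one and 10 changed sign. Few counts limit the values of Cd163 and Lyve1 at day 14, which rest on 50 and 32 pooled counts in border macrophages.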
